A study of Homo sapiens with 8 samples.

Results

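The genes described here are 9 targets of the transcription factor NRF2: GCLC, GCLM and SLC7A11, which supply glutathione, TXNRD1 and SRXN1 of the thioredoxin system, HMOX1 of heme breakdown, and the reductases NQO1, AKR1C1 and AKR1B10. They were taken by symbol from a table of 58206 genes, in which all 9 were found. All 9 had enough counts to be tested, although SRXN1 and AKR1B10 did so at about 1 CPM (counts scaled to a common library total).

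NRF2, encoded by NFE2L2, is held at a low level by KEAP1, an adaptor that presents it to a cullin ubiquitin ligase for degradation. Electrophiles and oxidants modify KEAP1, whereupon NRF2 accumulates, pairs with a small MAF protein (MAFF, MAFG or MAFK) and binds antioxidant response elements near its targets. BACH1 pairs with the same MAF proteins and represses part of these genes, HMOX1 above all, until heme removes it. In liver these genes serve the clearance of reactive compounds, and the pathway is often active in hepatocellular carcinoma. GSK3, the kinase that Axin1 binds in the Wnt pathway, also phosphorylates NRF2 for a KEAP1-independent route of degradation.

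RNA was measured by sequencing of mRNA libraries from Alexander1 (ATCC CRL-8024), an established epithelial line from a human hepatocellular carcinoma. Per the series' description and the labels, the parental group ("wt (Axin1 -)", 4 libraries) carries an Axin1 without its GSK3-binding region and therefore a permanently active Wnt pathway. The other group ("Axin1 +", 4 libraries) is a stable derivative of it, made with an Axin1 plasmid by retroviral transfer and hygromycin B selection of clones, a treatment text that the labels attach to all 8 samples. The labels do not say whether the derivative is 1 clone, which promoter drives Axin1, or whether replicates were separate cultures, so the p-values measure only the spread between these libraries. Cells grew at 5% CO2 in DMEM with 10% serum with no other treatment named.

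AXIN1 mRNA was not higher in the second group, at 47.4 to 55.3 CPM in parental and 37.7 to 48.2 CPM in restored-labelled libraries (log2 ratio -0.21, SE 0.12, edgeR adjusted p = 0.267). Every direction below therefore rests on the labels, and the second group is called restored-labelled, after the series' description. Parental libraries held 11232951 to 15263761 counts and restored-labelled ones 12372436 to 26400782, so that 3 counts corresponded to 0.108 to 0.267 CPM. On the principal components of log2 CPM, restored-labelled replicate 1 lay nearest to the parental libraries (22.2 on the first, against 48.7 to 56.8 for the other restored-labelled ones), and parental replicate 1 stood apart on the second (61.5 against -30.3 to 24.95). Of the 10 hepatocyte markers 2 were called higher (FGB and TTR) and 3 lower (SERPINA1, TF and AHSG), beside 10.4% and 8.77% of all genes tested. Their summed level was 23669 to 27912 CPM in parental and 18167 to 21679 CPM in restored-labelled libraries. Most of that sum was SERPINA1, at 16130 CPM ± 1188 and 10358 CPM ± 1109 (± SD, n = 4 per group), so it does not describe the list as a whole. The leukocyte markers summed to 421 to 949 CPM in parental and 672 to 919.5 CPM in restored-labelled libraries, nearly all of it LYZ (771 CPM ± 238 and 764 CPM ± 108, edgeR adjusted p = 0.974), with CD3E at 0 throughout. Fibroblast markers summed to at most 4.59 CPM, and PECAM1, usually endothelial, rose from 5.18 CPM ± 0.951 to 48.2 CPM ± 10.3 (± SD, n = 4 per group, edgeR adjusted p = 8.4e-06) while CDH5, VWF and KDR stayed near 0. Cholangiocyte markers summed to 21.97 to 52.8 CPM in parental and 25.6 to 68.9 CPM in restored-labelled libraries. Restored-labelled replicate 1 had 34.4 CPM of KRT19 against 0.078 to 1.43 CPM in the others of its group, and 13.8 CPM of ALB against 445 to 681 CPM. Parental libraries ranged from 1.29 to 16.9 CPM of KRT19 and 46.7 to 208 CPM of ALB. The part of these shifts in the results on NRF2 targets was not tested.

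The binding site for NRF2 and BACH1 has the core TGACNNNGC, and the promoter stretches below are shown because GCLM and TXNRD1 hold it close to their start sites. The RefSeq promoter table (GRCh38.p14, 250 bases before to 50 after each start) had 7 promoters for 6 of the 9 genes, with no entry used for HMOX1, SLC7A11 and AKR1B10. Searched on both strands, the core occurred in 3 of these 7 promoters, those of GCLM and both of TXNRD1. Of all 35116 promoters listed there, 13.3% held it. The looser TGANNNNGC, which includes the core, occurred in 5 of the 7 and in 41.8% of all promoters. Capitals mark matches of TGACNNNGC or its reverse complement, each stretch ends at the last base before the start site, and NQO1 is given as a gene whose window holds none.
GCLM (chr1:93909431-93909530, minus strand): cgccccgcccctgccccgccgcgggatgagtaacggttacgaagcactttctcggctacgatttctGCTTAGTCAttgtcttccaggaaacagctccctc
TXNRD1 upstream start (chr12:104215669-104215778, plus strand): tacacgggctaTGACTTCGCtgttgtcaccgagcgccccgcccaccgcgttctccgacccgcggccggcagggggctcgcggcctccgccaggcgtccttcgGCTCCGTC
TXNRD1 downstream start (chr12:104286922-104287031, plus strand): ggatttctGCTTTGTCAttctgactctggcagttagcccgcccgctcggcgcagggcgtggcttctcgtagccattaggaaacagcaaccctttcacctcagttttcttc
NQO1 (chr16:69726561-69726660, minus strand): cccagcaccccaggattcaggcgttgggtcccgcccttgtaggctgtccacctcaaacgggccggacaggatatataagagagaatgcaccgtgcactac
The match in GCLM begins at base -34 from the start, those in TXNRD1 at -99 and -8 of the upstream promoter (the latter runs over the end of the stretch) and at -102 of the downstream one. A match describes the letters and is not evidence of binding in these cells. Promoters of KEAP1 (log2 ratio 0.27), GPX2 (1.51) and MAFF (-1.03) held the core as well, and a relation of the core to the ratios was not tested.

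The targets did not move as 1 block. In these bulk libraries fewer cells that express a gene and less of its RNA per cell cannot be told apart. HMOX1, GCLM and SLC7A11 fell in the restored-labelled libraries, by 0.85, 0.73 and 0.46 in log2 ratio (restored-labelled over parental), and no target rose at the 0.05 level after adjustment (quasi-likelihood F test of edgeR, with Benjamini-Hochberg correction across 14289 tested genes). The 3 of 9 called lower compare with 8.77% of all genes tested, and the 0 of 9 called higher with 10.4%. In 4 of 9, the former 3 and TXNRD1, all restored-labelled values lay below all parental values, against 11.2% of all genes tested. In 0 of 9 the restored-labelled values all lay above the parental ones, against 12.7%. The median log2 ratio of the 9 was -0.42, beside 0.00 over all genes tested. Without parental replicate 1, 5 were called lower (3523 genes called in all, against 2738 with every library), and without restored-labelled replicate 1, 4 were (3159 genes in all). Leaving out any 1 of the other 6 libraries gave 2 called lower, with 1394 to 2160 genes called in all.

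**Figure D1:**
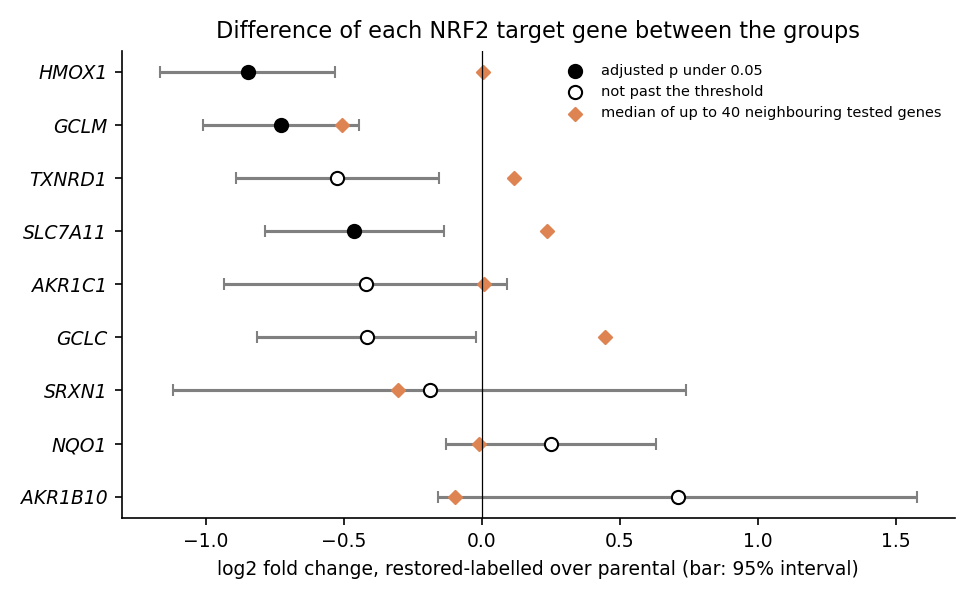
Log2 ratio of each NRF2 target, restored-labelled over parental (circles, with 95% intervals; filled where the edgeR adjusted p is under 0.05), and the median of up to 40 neighbouring tested genes on the chromosome (diamonds). HMOX1, GCLM and SLC7A11 are filled at -0.85, -0.73 and -0.46, and NQO1 and AKR1B10 are the 2 targets to the right of 0.

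Glutathione is made in 2 steps, the first of which, joining glutamate and cysteine, is catalysed by GCLC with its modifier subunit GCLM and limits the rate. GCLM (ENSG00000023909, GRCh38 chromosome 1, 93885205 to 93909456, minus strand) stood at 236, 241, 269.6 and 231 CPM in parental replicates 1 to 4 and at 171, 122, 147 and 150.5 CPM in restored-labelled libraries 1 to 4. The groups did not overlap, and every parental library was at least 231 CPM while no restored-labelled one exceeded 171 CPM. The means were 244 CPM ± 17.2 and 148 CPM ± 19.955 (± SD, n = 4 per group), a log2 ratio of -0.73 (SE 0.13, 95% interval -1.01 to -0.44, edgeR adjusted p = 0.0037), or 1.66-fold lower. Its 40 neighbouring tested genes had a median of -0.51 with 12 of them called, so that GCLM lay 0.22 below its neighbourhood.

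The catalytic subunit gene GCLC (ENSG00000001084, chromosome 6, 53497341 to 53616970, minus strand) stood at 163, 272.5, 290.4 and 229.9 CPM in parental and 189, 149, 175 and 204 CPM in restored-labelled libraries 1 to 4. Parental replicate 1 lay among the restored-labelled values, and the other 3 parental libraries lay above all of them. With means of 239 CPM ± 56.5 and 179 CPM ± 23.3 (± SD, n = 4 per group), the log2 ratio of -0.42 (SE 0.18, 95% interval -0.81 to -0.02) did not pass the threshold (edgeR adjusted p = 0.132). Without parental replicate 1 it was -0.56 and passed (edgeR adjusted p = 0.0138). The neighbours of GCLC pointed the other way, with a median of 0.45 and 19 of 40 called. The ratio of GCLC to GCLM counts, chosen after the values were seen, averaged 0.974 ± 0.196 in parental and 1.22 ± 0.104 in restored-labelled libraries (± SD, n = 4 per group), with overlapping values.

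SLC7A11 (ENSG00000151012, chromosome 4, 138164097 to 138242349, minus strand) encodes the light chain of the cystine importer that feeds glutathione synthesis, and is a target of ATF4 as well as of NRF2. Its values were 48.9, 62.9, 44.4 and 47.7 CPM in parental and 43.7, 34.3, 36.8 and 33.2 CPM in restored-labelled libraries 1 to 4. The groups nearly touched, at parental replicate 3 and restored-labelled replicate 1. From 50.98 CPM ± 8.17 it fell to 37.0 CPM ± 4.72 (± SD, n = 4 per group), a log2 ratio of -0.46 (SE 0.15, 95% interval -0.79 to -0.14) and an edgeR adjusted p of 0.04999, on the edge of the threshold. The call was lost in 10 of 18 alternative analyses, among them those without parental replicate 2, 3 or 4 (log2 ratios of -0.35, -0.53 and -0.49) and without restored-labelled replicate 2, 3 or 4 (-0.43, -0.46 and -0.41). SLC3A2, the heavy chain that carries SLC7A11 to the membrane, stood at 678 CPM ± 186 and 515 CPM ± 58.02 (± SD, n = 4 per group) and was not called (log2 ratio -0.40, edgeR adjusted p = 0.166).

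**Figure D2:**
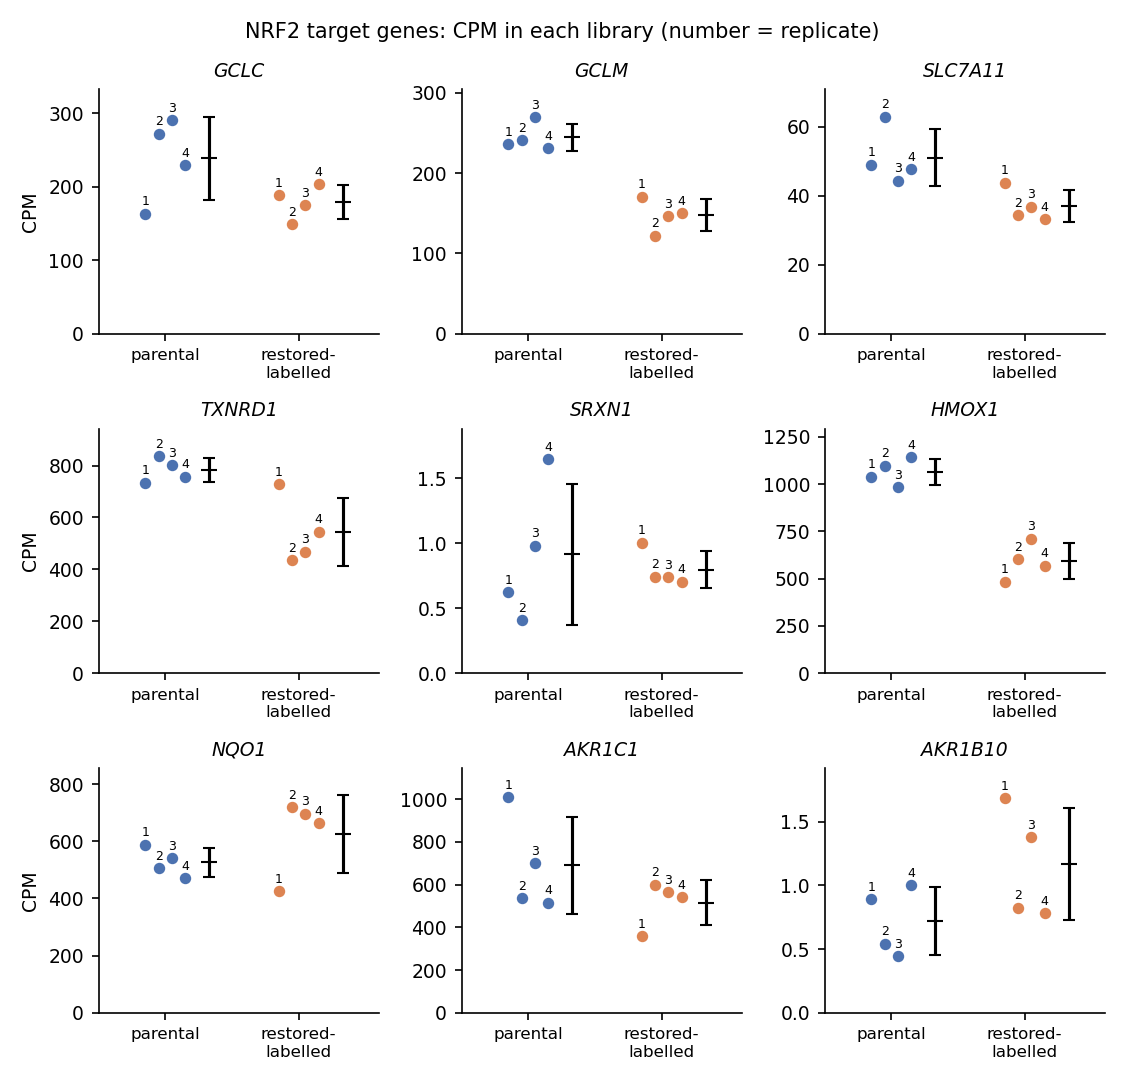
CPM (linear scale from 0) of the 9 NRF2 targets in each parental and restored-labelled library, labelled by replicate number, with the group mean ± SD (bars, n = 4). HMOX1, GCLM, TXNRD1 and SLC7A11 have no overlap between the groups, and NQO1 has 3 restored-labelled libraries between 663 and 719 CPM above all parental ones and 1 at 426 CPM below them.

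TXNRD1 (ENSG00000198431, chromosome 12, 104215779 to 104350305, plus strand) encodes the cytosolic selenoenzyme that keeps thioredoxin reduced with electrons from NADPH. It stood at 734, 836, 802 and 758 CPM in parental and 728, 436, 469 and 546 CPM in restored-labelled libraries 1 to 4. Restored-labelled replicate 1 was just below the lowest parental library, and the other 3 lay well below. Means were 782 CPM ± 45.5 and 544 CPM ± 131 (± SD, n = 4 per group), a log2 ratio of -0.52 (SE 0.17, 95% interval -0.89 to -0.15) that missed the threshold by a narrow margin (edgeR adjusted p = 0.0503). Without restored-labelled replicate 1 it was -0.70 (edgeR adjusted p = 0.0065) and without parental replicate 1 it was -0.56 (edgeR adjusted p = 0.0339). It passed in 8 of 18 alternative analyses in all, among them the DESeq2 Wald test (-0.53, adjusted p = 0.0119) and limma-voom (-0.56, adjusted p = 0.0322). Its 40 neighbours had a median of 0.12.

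SRXN1 (ENSG00000271303, chromosome 20, 646615 to 653370, minus strand), which encodes sulfiredoxin, the enzyme that repairs overoxidised peroxiredoxins, was counted at 7, 6, 11 and 23 reads in parental and 28, 9, 15 and 18 reads in restored-labelled libraries 1 to 4. These correspond to 0.914 CPM ± 0.542 and 0.797 CPM ± 0.139 (± SD, n = 4 per group), with overlapping groups (log2 ratio -0.19, SE 0.42, 95% interval -1.12 to 0.74, edgeR adjusted p = 0.788). The interval covers changes of more than 1 log2 unit in the lower direction, so a difference was not detectable in these libraries. In GENCODE 29, 2292 of the 2698 exon bases of SRXN1 (84.95%) belong also to another protein-coding gene on the same strand, ENSG00000270299, which had 0 counts in all 8 libraries. How the authors' counting treated reads in shared bases is not given in the sources used here, and the low level of SRXN1 may not be its true level.

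HMOX1 (ENSG00000100292, chromosome 22, 35380361 to 35394214, plus strand) encodes heme oxygenase-1, which opens heme to biliverdin, iron and carbon monoxide, and it showed the largest decrease among the 9. It stood at 1040.1, 1097, 984 and 1144 CPM in parental and 485, 603, 712 and 569 CPM in restored-labelled libraries 1 to 4. The lowest parental library (984 CPM) was far above the highest restored-labelled one (712 CPM). HMOX1 fell from 1066 CPM ± 69.2 to 592 CPM ± 94.3 (± SD, n = 4 per group), a log2 ratio of -0.85 (SE 0.14, 95% interval -1.17 to -0.53, edgeR adjusted p = 0.0030), or 1.80-fold lower. The constitutive isozyme gene HMOX2 stood at 67.6 CPM ± 4.15 and 61.1 CPM ± 13.3 (± SD, n = 4 per group) and was not called (edgeR adjusted p = 0.55). Genes around HMOX1 had a median of 0.01, with 3 of 40 called. HMOX1 and GCLM stayed past the threshold in all 18 alternative analyses, with log2 ratios from -0.95 to -0.76 and from -0.82 to -0.64.

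NQO1 (ENSG00000181019, chromosome 16, 69706996 to 69726951, minus strand) encodes the quinone reductase most often used as a readout of NRF2 activity. It stood at 588, 505, 541 and 471 CPM in parental and 426, 719, 697 and 663 CPM in restored-labelled libraries 1 to 4. Restored-labelled replicate 1 was the lowest of the 8 libraries, and the other 3 were the highest. The means of 526 CPM ± 50.05 and 626 CPM ± 136 (± SD, n = 4 per group) gave a log2 ratio of 0.25 (SE 0.17, 95% interval -0.13 to 0.63) that was not called (edgeR adjusted p = 0.337). Without restored-labelled replicate 1 the value was 0.40 (edgeR adjusted p = 0.0553). When parental replicate 1 was left out with it, an analysis added after the data were seen, the value was 0.46 and passed (edgeR adjusted p = 0.0129). The ratio of NQO1 to HMOX1 counts, also chosen after the values were seen, was 0.412 to 0.565 in parental and 0.878 to 1.19 in restored-labelled libraries, without overlap.

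The aldo-keto reductases AKR1C1 and AKR1B10 reduce ketosteroids, retinal and lipid aldehydes, and each has closely related copies beside it. AKR1C1 (ENSG00000187134, chromosome 10, 4963253 to 4983283, plus strand) shares 98.05% of its 972 coding bases with AKR1C2, 91.46% with AKR1C3 and 88.48% with AKR1C4 in GENCODE 29, and the longest stretch identical to AKR1C2 is 189 bases. The first 60 coding bases are shown because AKR1C1 and AKR1C2 are nearly the same in them, while AKR1C3 and AKR1C4 differ more. Capitals mark the 12 positions at which the 4 genes are not all the same.
AKR1C1: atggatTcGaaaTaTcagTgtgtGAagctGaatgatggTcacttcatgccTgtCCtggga
AKR1C2: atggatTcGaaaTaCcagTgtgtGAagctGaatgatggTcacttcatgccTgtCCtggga
AKR1C3: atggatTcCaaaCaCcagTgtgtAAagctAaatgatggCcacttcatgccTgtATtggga
AKR1C4: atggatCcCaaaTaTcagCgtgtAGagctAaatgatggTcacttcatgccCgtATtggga
Values of the single AKR1C genes are therefore uncertain, those of AKR1C1 and AKR1C2 most of all, since the authors' counting could have split or dropped shared reads.

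AKR1C1 stood at 1009, 536, 700.5 and 515 CPM in parental and 359, 599.5, 564 and 540.3 CPM in restored-labelled libraries 1 to 4. Parental replicate 1 was the highest and restored-labelled replicate 1 the lowest, and the other 6 libraries overlapped. The log2 ratio of -0.42 (SE 0.23, 95% interval -0.93 to 0.09) was not called (edgeR adjusted p = 0.232), and it was -0.18 without parental replicate 1. AKR1C2 stood at 1180 CPM ± 298 and 1165 CPM ± 351 (± SD, n = 4 per group), and its log2 ratio of -0.02 changed sign under 6 of 18 alternative analyses. AKR1C3 stood at 525 CPM ± 130.5 and 808 CPM ± 309 (± SD, n = 4 per group) and passed the threshold only without restored-labelled replicate 1, with or without parental replicate 1, and without an expression filter (0.62 with all libraries, edgeR adjusted p = 0.173, and 0.87 without restored-labelled replicate 1, adjusted p = 0.0105). With the counts of AKR1C1 to AKR1C4 summed into 1 feature, the log2 ratio was 0.06 (edgeR adjusted p = 0.90) in place of -0.42. Within that sum, AKR1C1 made up 28.5% ± 2.26 in parental and 21.4% ± 3.40 in restored-labelled libraries, and AKR1C3 22.0% ± 1.96 and 31.5% ± 3.94 (± SD, n = 4 per group).

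**Figure D3:**
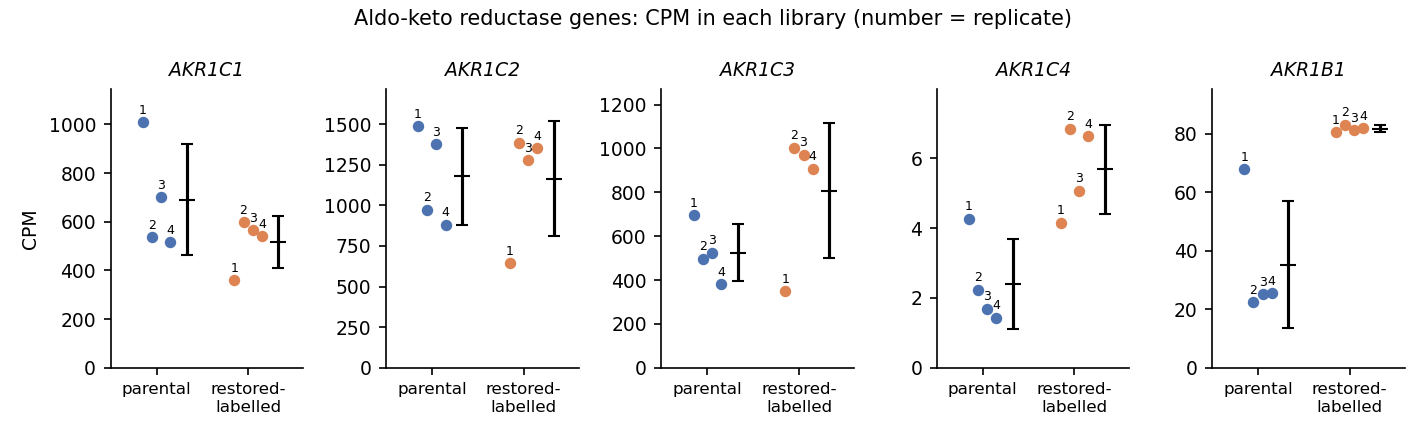
CPM (linear scale from 0) of AKR1C1 to AKR1C4 and AKR1B1 in each parental and restored-labelled library, labelled by replicate number, with the group mean ± SD (bars, n = 4). Restored-labelled replicate 1 is the lowest of its group in all 5 panels, and the 4 restored-labelled values of AKR1B1 lie between 80.6 and 83.2 CPM.

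AKR1B10 (ENSG00000198074, chromosome 7, 134527592 to 134541408, plus strand), a gene often strongly raised in hepatocellular carcinoma, was hardly expressed here, with 10, 8, 5 and 14 counts in parental and 47, 10, 28 and 20 counts in restored-labelled libraries 1 to 4. The levels of 0.7197 CPM ± 0.268 and 1.17 CPM ± 0.44 (± SD, n = 4 per group) overlapped (log2 ratio 0.71, SE 0.39, 95% interval -0.16 to 1.58, edgeR adjusted p = 0.233). Its close copy AKR1B15 (92.85% over 951 aligned coding bases) had at most 0.178 CPM in any library. The related aldose reductase AKR1B1 (76.0%) rose from 35.3 CPM ± 21.8 to 81.8 CPM ± 1.11 (± SD, n = 4 per group), a log2 ratio of 1.22 (SE 0.31, edgeR adjusted p = 0.0208). Parental replicate 1 had 67.9 CPM of AKR1B1 and the other parental libraries 22.5 to 25.6 CPM. AKR1C4 was called higher as well, from 2.41 CPM ± 1.29 to 5.68 CPM ± 1.29 (log2 ratio 1.24, edgeR adjusted p = 0.0297), with overlapping groups. Leaving out any of parental replicates 2, 3 and 4 or restored-labelled replicates 3 and 4 ended the call of AKR1B1 (1.05, 1.08, 1.09, 1.22 and 1.22). The same libraries and restored-labelled replicate 2 ended that of AKR1C4 (1.21, 1.11, 1.05, 1.29, 1.15 and, without restored-labelled replicate 2, 1.15), as did the fit blocked on replicate numbers (1.32).

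Per exon length, on the scale of TPM (counts per exon length scaled to a common total) computed from the counts, the order of the 9 levels was the same in both groups. Exon length was the merged length of all annotated exons, 8765 bases for AKR1C1 and 3254 for NQO1, so the order between genes depends on the gene models. By CPM, AKR1C1 stood above NQO1 in parental libraries (690 against 526) and below it in restored-labelled ones (516 against 626). HMOX1 was first at 1474 TPM ± 199.5 in parental and 874 TPM ± 114 in restored-labelled libraries, followed by NQO1 (534 ± 34.2 and 681 ± 127), TXNRD1 (388 ± 51.6 and 293 ± 89.0), AKR1C1 (256 ± 59.2 and 208 ± 36.1), GCLM (150.01 ± 21.04 and 97.8 ± 19.8), GCLC (93.1 ± 27.8 and 74.5 ± 15.05), SLC7A11 (17.5 ± 3.07 and 13.7 ± 2.41), AKR1B10 (1.36 ± 0.528 and 2.41 ± 0.989) and SRXN1 (1.16 ± 0.771 and 1.06 ± 0.237, all SD, n = 4). In parental libraries the ranges of neighbours in this order overlapped for TXNRD1 and AKR1C1 and for AKR1B10 and SRXN1. Among restored-labelled libraries they overlapped for HMOX1 and NQO1, TXNRD1 and AKR1C1, and GCLM and GCLC. Across all tested genes the mean CPM of HMOX1 ranked at the 99.1 percentile, that of NQO1 at 98.4, and that of SRXN1 at 3.11.

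Replicates of 1 group did not vary together across the 9 genes. After each group's mean log2 CPM was removed, 17 of the 36 pairs of targets correlated positively and 19 negatively over the 8 libraries, with a median Pearson r of -0.14. The pairs NQO1 with AKR1C1 (0.84) and GCLM with TXNRD1 (0.83) had the highest r, and NQO1 with TXNRD1 (-0.90) the lowest. These values describe 8 libraries that share their scaling, and restored-labelled replicate 1 was the highest of its group for 5 targets and the lowest for 3. By the same measure, the tested gene of at least 1 CPM most like each target, out of about 13558 compared, was ALDH7A1 for NQO1 (0.994), USP46 for GCLC (0.996), SHROOM2 for GCLM (0.982), WWTR1 for TXNRD1 (0.995) and EIF2B3 for HMOX1 (0.98). For the other targets it was C16orf86 for SLC7A11 (0.947), MSTO1 for AKR1C1 (0.991), ANKRD40CL for SRXN1 (0.976) and SPHK2 for AKR1B10 (0.984). Each of these r is the highest of that many over only 8 libraries, so it is not evidence of a link between the genes.

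The regulators of NRF2 were compared next, as a list of 16 genes, all tested. BACH1, NFE2L1 and GSK3A were called higher and MAFF lower, 4 of 16 beside 19.2% of all genes tested, and the median log2 ratio was 0.02. NFE2L2 itself stood at 98.7, 165, 136 and 203 CPM in parental and 249, 128, 157 and 169 CPM in restored-labelled libraries 1 to 4. Parental replicate 1 lay below and restored-labelled replicate 1 above all values of the other group, and the other 6 libraries overlapped (log2 ratio 0.22, SE 0.24, edgeR adjusted p = 0.553), and the sign turned to -0.15 without the replicates 1 of both groups. KEAP1 stood at 123 CPM ± 6.87 and 148 CPM ± 17.1 (± SD, n = 4 per group) and was not called (log2 ratio 0.27, edgeR adjusted p = 0.137), passing in 2 of 18 alternative analyses.

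BACH1, the repressor, stood at 17.8, 22.4, 19.4 and 16.96 CPM in parental and 32.4, 23.9, 23.3 and 35.4 CPM in restored-labelled libraries 1 to 4, without overlap. It rose from 19.1 CPM ± 2.40 to 28.7 CPM ± 6.11 (± SD, n = 4 per group), a log2 ratio of 0.59 (SE 0.18, edgeR adjusted p = 0.0385). Its 40 neighbours had a median of 0.30, with 10 called. That call ended without parental replicate 2, 3 or 4 (0.67, 0.59 and 0.53) and without restored-labelled replicate 1 or 4 (0.52 and 0.47), and in the fit blocked on replicate numbers (0.57, edgeR adjusted p = 0.0983) and without the replicates 1 of both groups (0.50). MAFF, a partner of both NRF2 and BACH1, stood at 109, 123, 86.2 and 142 CPM in parental and 73.7, 64.1, 45.1 and 41.96 CPM in restored-labelled libraries 1 to 4. It fell by 1.03 on the log2 scale (SE 0.21, edgeR adjusted p = 0.0070), past the threshold in all 18 alternative analyses. NFE2L1, the relative of NRF2 that drives proteasome genes, rose from 436 CPM ± 39.5 to 631 CPM ± 35.2 (± SD, n = 4 per group; log2 ratio 0.53, edgeR adjusted p = 0.0134). GSK3A, encoding a GSK3 isoform, rose from 81.5 CPM ± 14.8 to 125 CPM ± 16.1 (log2 ratio 0.61, edgeR adjusted p = 0.0179). GSK3B, encoding the other isoform, went the other way, from 41.6 CPM ± 2.12 to 33.6 CPM ± 4.60, without overlap. GSK3B was not called (log2 ratio -0.31, edgeR adjusted p = 0.129). Neither NFE2L1 (0.48) nor GSK3A (0.60) passed without parental replicate 2. GSK3A also did not pass without parental replicate 3 (0.54) or restored-labelled replicate 3 (0.56). The 40 neighbours had a median of 0.35 for NFE2L1, with 14 called, and of 0.36 for GSK3A, with 12 called.

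**Figure D4:**
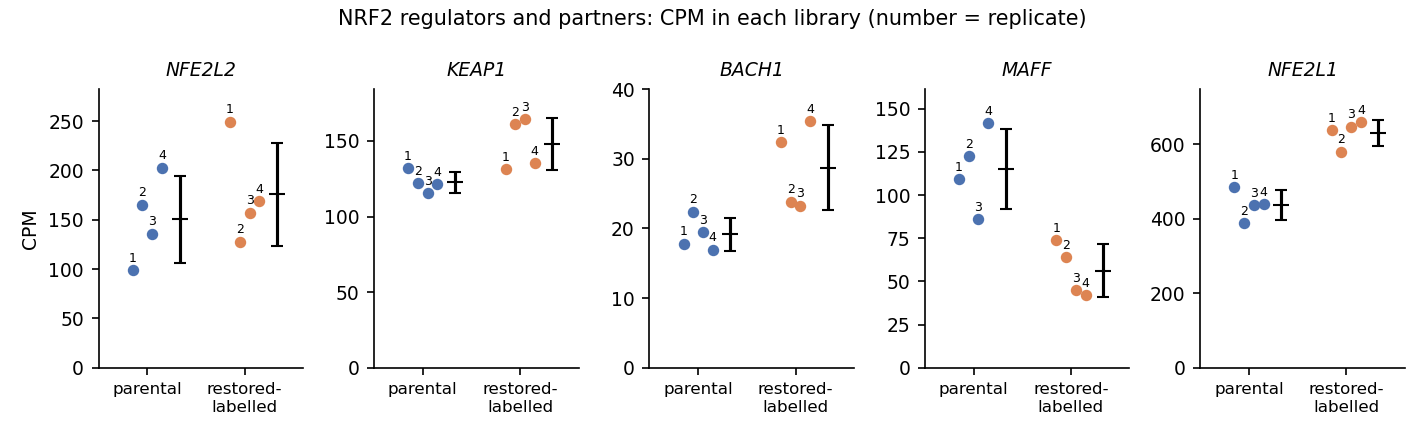
CPM (linear scale from 0) of NFE2L2, KEAP1, BACH1, MAFF and NFE2L1 in each parental and restored-labelled library, labelled by replicate number, with the group mean ± SD (bars, n = 4). BACH1 and NFE2L1 are higher and MAFF lower in all 4 restored-labelled libraries than in any parental one, and the groups of NFE2L2 overlap between 128 and 203 CPM.

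Other genes of the pathway moved in both directions. Over 7 lists that hold 107 genes besides the 9, 103 were tested, of which 15 were called higher and 12 lower, with a median log2 ratio of -0.02. Called genes made up 26.2% of these 103, beside 19.2% of all genes tested (10.4% higher and 8.77% lower). The 9 targets and these lists were chosen with earlier results of these data known, so such shares are a description and not a test. With every library 2738 genes were called in all. The pathway counts, higher and lower, were 7 and 4 without parental replicate 2, where 1508 genes were called in all. They were 9 and 7 without parental replicate 3 (2061 genes in all) and 13 and 7 without restored-labelled replicate 2 (2134). Without restored-labelled replicate 3 they were 9 and 6 (1531), and without restored-labelled replicate 4 they were 10 and 4 (1394). Without the replicates 1 of both groups they were 23 and 20, where 4623 genes were called in all. In promoters of these genes the core TGACNNNGC occurred in 31 of 129 (24.0%), beside 13.3% of all promoters.

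Glutathione genes held 3 called higher and 4 called lower of 15 tested, beside 10.4% and 8.77% of all genes. Glutathione peroxidase GPX2, a known NRF2 target of epithelia, rose from 61.7 CPM ± 6.82 to 176 CPM ± 38.1 (± SD, n = 4 per group), a log2 ratio of 1.51 (SE 0.16, edgeR adjusted p = 0.00023). Its promoter holds GCTAAGTCA, a reverse-strand match of the core, from base -122. The transferase gene GSTA4 rose from 19.4 CPM ± 3.07 to 55.04 CPM ± 11.5 (log2 ratio 1.50, edgeR adjusted p = 0.00052), whereas GSTM3 fell from 87.7 CPM ± 12.2 to 40.7 CPM ± 8.53 (-1.11, edgeR adjusted p = 0.0014). The 40 neighbours of GSTM3 had a median of -0.60, with 16 called, and those of GSTA4 a median of 0.40, with 17 called. GLRX was also called higher, and the other 3 called lower were GSTP1, MGST1 and OPLAH, named here to complete the count.

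Of 15 thioredoxin and peroxiredoxin genes, 1 was called higher and 0 lower, a share called of 6.67% beside 19.2% of all genes. That was TXNIP, whose product binds and inhibits thioredoxin, which rose from 3.04 CPM ± 0.682 to 11.4 CPM ± 2.61 (± SD, n = 4 per group), a log2 ratio of 1.92 (SE 0.24, edgeR adjusted p = 0.00056). SESN1 and SOD1 had the next smallest p-values and were not called (0.51 and 0.37, edgeR adjusted p = 0.0787 and 0.131), although SESN1 passed with the DESeq2 Wald test (0.50, adjusted p = 0.0462) and SOD1 passed without parental replicate 1 (0.49), without the replicates 1 of both groups (0.56) and with total counts only (0.46). Genes for the supply of NADPH, which TXNRD1, NQO1 and glutathione reduction consume, held 0 called higher and 3 called lower of 10. The shares over all genes were 10.4% and 8.77%, and the median of the 10 was -0.24. Of these, 4 had positive and 6 negative log2 ratios. The 7 not called included PGD, ME1 and IDH1 (0.00, 0.05 and -0.12). IDH2 fell from 371 CPM ± 65.9 to 211 CPM ± 19.9 (log2 ratio -0.81, edgeR adjusted p = 0.0048). TALDO1, transaldolase of the pentose phosphate pathway, fell by 0.52 (edgeR adjusted p = 0.0246). Its call ended without parental replicate 2 or 3 or restored-labelled replicate 4 (-0.55, -0.53 and -0.51) and in the fit blocked on replicate numbers (-0.53).

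**Figure D5:**
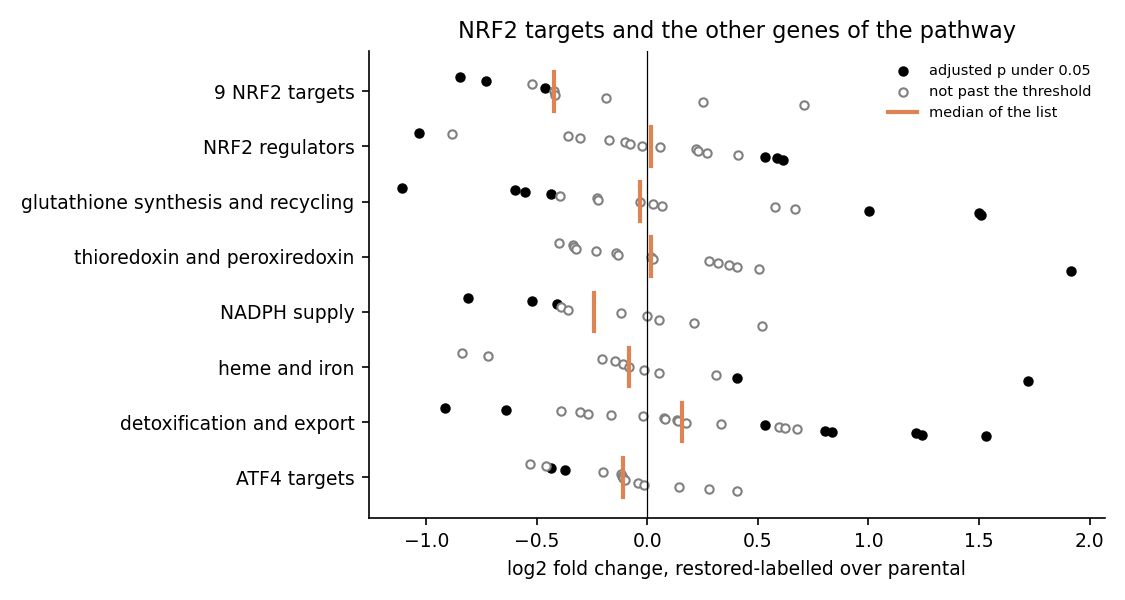
Log2 ratio, restored-labelled over parental, of the 9 NRF2 targets and of 7 lists of other pathway genes (circles, 1 per tested gene, filled where the edgeR adjusted p is under 0.05; orange lines, list medians). The 9 targets have a median of -0.42, and the medians of the other lists lie between -0.24 and 0.16.

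Genes of detoxification and export held 6 called higher and 2 lower of 22 tested, beside 10.4% and 8.77% of all genes, with a median of 0.16. ALDH3A1, an aldehyde dehydrogenase, rose from 1.06 CPM ± 0.191 to 3.10 CPM ± 0.9502 (± SD, n = 4 per group), a log2 ratio of 1.53 (SE 0.33, edgeR adjusted p = 0.0097). EPHX1, the microsomal epoxide hydrolase, rose from 84.5 CPM ± 18.2 to 148 CPM ± 24.8 (0.80, edgeR adjusted p = 0.0101). ABCC2, the canalicular exporter of conjugates, fell from 958 CPM ± 20.8 to 615 CPM ± 32.1 (-0.64, edgeR adjusted p = 0.0041). The remaining calls were AKR1B1, AKR1C4, ALDH1A1 and CBR1, higher, and OSGIN1, lower. Heme and iron handling held 2 called higher and 0 lower of 11 tested, 18.2% beside 19.2% of all genes. HPX, the plasma heme carrier, rose from 2.41 CPM ± 0.728 to 7.97 CPM ± 1.69 (1.72, edgeR adjusted p = 0.0017), and the heme transporter SLC48A1 was called at 0.41 (edgeR adjusted p = 0.0401), a call lost in 9 of 18 alternative analyses with values of 0.35 to 0.44. ATF4 targets, listed because SLC7A11 is also one, held 0 called higher and 2 lower of 14 (14.3% called, beside 19.2% of all genes), SHMT2 (-0.44, edgeR adjusted p = 0.0299) and TRIB3 (-0.37, edgeR adjusted p = 0.0485), lost in 8 and 10 of 18 alternative analyses. PHGDH was not called (-0.46, edgeR adjusted p = 0.0754). It passed without parental replicate 4 (-0.56), without restored-labelled replicate 1 (-0.60) and in 2 other of the 18 alternative analyses.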

How the data were processed

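RNA was sequenced from 8 libraries, 4 titled wt (parental) and 4 titled Axin1+ (restored, in the series' description), grouped by title. The authors deposited raw counts per gene, without normalization, as whole numbers with differing totals show. The submitters' processing notes name bcl2fastq, fastp 0.23.1, STAR 2.7.4 and GRCh38. The counting program, annotation and strand setting are not given in the sources used here. Columns were matched to samples by name.

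Of 58206 identifiers, 57943 were found in GENCODE 29 (GRCh38), which gave coordinates and exon lengths, and 57495 had a symbol. The tests used edgeR 4.0.16 under R 4.3.3: filterByExpr (minimum count 10, total 15), TMM scaling (factors 0.897 to 1.06), quasi-likelihood test without covariates, two-sided, Benjamini-Hochberg adjustment over 14289 genes, threshold 0.05. Each standard error was derived as |log2 ratio| divided by √F. Log2 CPM used a prior count of 2. Neighbours are the 20 tested genes on either side by start position, fewer near chromosome ends. Libraries of 1 group differed by more than counting noise (chi-square per degree of freedom 9.19 to 92.01).

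Members and lists were chosen with earlier results of these data known. Named are the 9 targets, NFE2L2, KEAP1, BACH1, AXIN1, the closely related AKR genes and, from each of 7 lists, the 3 genes with the smallest p-value. A gene so named is not reported here. Others were named after their values were seen. Alternatives were DESeq2 1.42.0, limma-voom (limma 3.58.1), other scalings and filters, thinning, summed AKR genes, the replicate block and leaving out each library. Tested on simulated counts of 14089 genes with 200 changed, edgeR recovered 73% of 2-fold and 99% of 4-fold changes, with 5.49% of its calls false, against 16.4% for DESeq2 and 5.56% for limma-voom. Genes with as few counts as SRXN1 and AKR1B10 were not among those changed. Noise was drawn independently for each gene and library, so no simulated library was made to stand apart. These rates need not hold for the real libraries or for changes under 2-fold.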

Additional observations from a re-analysis of the deposited data

Results flagged for a closer look

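Libraries that stood apart from the other 3 of their group, by a gap to the nearest that took up most of the group's log2 CPM range (Dixon's 95% critical value), were sought in 76 groups of 4 libraries (38 genes). There were 9. Chance alone gives about 1 in 20 independent groups, but these share the same 8 libraries and many genes were picked by their p-value. The 9 therefore cannot be set against that rate. No explanation was tested.

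Restored-labelled replicate 1 accounted for 5 of them. Its NQO1 level was 426 CPM, where the other restored-labelled libraries had 663 to 719 CPM. AKR1C2 stood at 642 CPM in it against 1280 to 1385 CPM, AKR1C3 at 349 CPM against 908 to 1004.5 CPM, and GSTA4 at 37.9 CPM against 59.7 to 62.03 CPM. SRXN1 was higher in it than in the others, at 1.004 CPM against 0.703 to 0.743 CPM, on 28 counts.

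Parental replicate 1 had 67.9 CPM of AKR1B1 against 22.5 to 25.6 CPM in the other parental libraries, and 112 CPM of EPHX1 against 72.5 to 77.1 CPM. TRIB3 was highest in parental replicate 2, at 144 CPM against 137.1 to 137.4 CPM. AXIN1 was lowest in restored-labelled replicate 4, at 37.7 CPM against 47.6 to 48.2 CPM.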

How the results depend on the processing

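HMOX1 and GCLM were called lower in all 18 alternatives. Settings that changed other calls or counts follow, with log2 fold changes; causes were not tested. SLC7A11 lost its call with total counts only (-0.38), no expression filter (-0.43), limma-voom (-0.46) and the replicate block (-0.46). TXNRD1 gained one with DESeq2 size factors (-0.53), upper-quartile scaling (-0.53), the filter at 1 CPM on average (-0.52), DESeq2's own test (-0.53) and limma-voom (-0.56). SRXN1 turned to 0.12 with thinning to 11232951 counts, and AKR1C1 to 0.058 when summed with its copies. AKR1C2 turned to 0.068 with total counts only and 0.014 without a filter, and to 0.11, 0.06 and 0.18 without parental replicate 1, parental replicate 3 or restored replicate 1.

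Without the replicates 1 of both groups (added after seeing the data) 4623 genes were called against 2738, 1 target was higher (NQO1, 0.46) and 5 were lower (GCLC at -0.58 and TXNRD1 at -0.72 among them), 23 pathway genes were higher and 20 lower, SLC7A11 was -0.57, AKR1C2 0.32 and NFE2L2 -0.15. At an adjusted p under 0.01, 964 genes, 6 higher and 4 lower pathway genes were called. Pathway genes called lower numbered 7 with total counts only (2592 genes in all) and 7 with the replicate block (2033 genes in all).

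Leaving out 1 library in turn gave 1394 to 3523 genes called, 2 to 5 targets lower and 0 higher, and 7 to 18 pathway genes higher and 4 to 13 lower. The targets then ranged from -0.95 to -0.76 (HMOX1), -0.81 to -0.65 (GCLM), -0.55 to -0.35 (SLC7A11), -0.70 to -0.43 (TXNRD1), -0.56 to -0.31 (GCLC), -0.54 to -0.18 (AKR1C1), -0.45 to 0.28 (SRXN1, reversed without parental replicate 4), -0.13 to 0.18 (AKR1C2), 0.18 to 0.40 (NQO1) and 0.47 to 0.92 (AKR1B10).

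Libraries of the same replicate number had deviations from their group means that correlated at -0.06 to 0.23, best with the own number in 1 of 4. So few libraries cannot show whether the numbers mark pairs. With the replicate block 2033 genes were called. Total counts only moved the median of all genes to 0.09 and the share of calls that were higher from 54.2% to 66.5%. SRXN1 and AKR1B10 rested on 5 to 47 counts per library.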

Other observations

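The iron-storage genes, NRF2 targets that were in a list and not among those named by the rule apart from FTH1, were among the most abundant and varied widely between replicates. FTH1, the ferritin heavy chain, stood at 8113 CPM ± 4026 in parental and 4929 CPM ± 863 in restored-labelled libraries (SD, n = 4 each), with 14049 CPM in parental replicate 1, and was not called (log2 ratio -0.72, edgeR adjusted p = 0.111). Without parental replicate 1 the log2 ratio of FTH1 was -0.32, and without an expression filter it was -0.68 and passed the threshold (edgeR adjusted p = 0.0239). The light chain gene FTL stood at 13119 CPM ± 3609 and 16278 CPM ± 3878 and was not called (0.31, edgeR adjusted p = 0.382). SLC40A1, the iron exporter, had 25.6 CPM ± 8.10 and 14.2 CPM ± 8.25 (-0.84, edgeR adjusted p = 0.119), with 26.2 CPM in restored-labelled replicate 1 and 7.51 to 12.3 CPM in the other restored-labelled libraries. TFRC, the transferrin receptor, had 602 CPM ± 185 and 595 CPM ± 143 (-0.02, edgeR adjusted p = 0.971).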
